A study of Mus musculus with 6 samples.

Results

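The genes of the transforming growth factor β (TGF-β) and bone morphogenetic protein (BMP) superfamily were followed on 6 Affymetrix MoGene-1_0-st arrays. Members were taken by gene symbol, as every probe set paired with exactly 1 symbol that begins with Bmp, Gdf, Smad, Tgfb or Ltbp and a digit, with Tgfbr, Bmpr, Acvr, Inhb or Fstl, or with Grem and a digit, or that is Bmper, Nog, Fst, Chrd or one of Id1 to Id4. This gave 46 genes with 1 probe set each, out of 10261 genes on 11288 probe sets with 1 symbol. The rule uses symbols and no signal. Tgfb1, Bmp2, Bmp7, Bmpr1a and Smad4 were not analysed here, and neither was 1 probe set that the platform table pairs with both Cers1 and Gdf1.

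The arrays fall into 3 labelled keratinocytes and 3 labelled MEFs (mouse embryonic fibroblasts), from primary cells with no treatment given in the labels. Per the labels, the keratinocytes came from newborn mice at postnatal day 0 and the MEFs from embryos at E13.5. Both groups were cultured, the keratinocytes from back skin in an epidermal keratinocyte medium and the MEFs in DMEM with serum, so that culture and age are confounded with cell type. The MEFs are described as C57BL/6J and no strain is described for the keratinocytes, while the isolation protocol in the labels mentions DR-4 as the strain wanted for MEFs. MEFs prepared in this way are a mixture of the mesenchymal cells of a headless and gutted embryo. Each array is labelled as a biological replicate, and the sources used here do not say whether animals were pooled.

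Ligands of this superfamily are secreted dimers that bind pairs of type I and type II serine/threonine kinase receptors at the cell surface. The receptors phosphorylate Smad proteins, which enter the nucleus and change transcription: Smad2 and Smad3 carry TGF-β and activin signals, Smad1, Smad5 and Smad9 carry BMP signals, and Smad6 and Smad7 inhibit the pathway. TGF-β is stored in the matrix in a latent complex with the Ltbp proteins, and antagonists such as noggin, gremlin and follistatin bind ligands outside the cell. In skin, TGF-β is known to restrain the growth of keratinocytes and to raise matrix production by fibroblasts, and in cultured epithelia it can drive an epithelial to mesenchymal transition.

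The labels were checked first with Cdh1, which encodes E-cadherin, and Vim, which encodes vimentin. Cdh1 had log2 signals of 3.33, 2.16 and 3.26 on the keratinocyte-labelled arrays, against 8.62, 8.59 and 8.73 on the MEF-labelled arrays. Vim had 11.93, 11.97 and 12.03 against 3.81, 3.92 and 3.78 in the same order. Each gene separated the groups without overlap, and each ran against the labelled cell type (exact two-sided permutation test, p = 0.1 for each, the smallest that 3 arrays against 3 can give). All 4 epithelial markers measured were lower and all 4 fibroblast markers higher on the keratinocyte-labelled arrays. Linear signals summed over the epithelial markers were 24 to 33.4 on the keratinocyte-labelled arrays and 10883 to 11053 on the MEF-labelled arrays, and over the fibroblast markers 16433 to 17114 and 65.9 to 81.5. Pearson's r between arrays was 0.976 to 0.99 within a group and 0.721 to 0.74 across groups. Every direction below is therefore that of the arrays as labelled, and it may not be that of the cell type.

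Differences are given on the log2 scale as keratinocyte-labelled minus MEF-labelled arrays, from 1 limma fit over the 11288 probe sets, and were called at an adjusted p under 0.05. A signal was taken as above background on an array where it exceeded the 95th percentile over 10 probe sets for olfactory receptors. This level lay at 5.49 to 5.92 on the keratinocyte-labelled arrays and at 6.05 to 6.58 on the MEF-labelled arrays. The median signal of all deposited probe sets was 6.16 to 6.22 and 6.25 to 6.31 in the same order. The level thus exceeded the median on MEF-labelled replicates 1 and 3 and on no keratinocyte-labelled array. It is stricter on the MEF-labelled arrays, and a signal under it does not show that a gene was absent. On the MEF-labelled arrays 1 bright olfactory probe set, at 6.66 to 7.52, set that level. It was also the brightest of them on keratinocyte-labelled replicates 1 and 2, at 5.82 and 6.31. With it left out, a choice made after its values were seen, the level was 5.44 to 5.51 and 5.25 to 5.57. Where a gene was not above background on any array of a group, the fold is given as a lower bound, first with all 10 probe sets and then, for members, without the bright one. Where it was above background on no array, or the bound with all 10 came to under 1, no fold is given unless the second bound is stated. Signals of different genes come from different probes and are not compared with each other.

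Of the 46 genes, 31 (67.4%) were higher on the keratinocyte-labelled arrays, where 32.9% of all genes were, and 10 (21.7%) were higher on the MEF-labelled arrays, where 41.7% of all genes were. The other 5 did not pass. With the arrays centred on their medians these counts were 32 and 7 for the members, while the excess among all genes turned round, to 3902 higher on the keratinocyte-labelled arrays and 3575 on the MEF-labelled arrays. The median log2 difference of the members was 0.93, beside -0.12 for all genes. At a log2 difference of at least 1, 20 members were higher on the keratinocyte-labelled arrays and 4 on the MEF-labelled arrays, while the shares of all genes were 14.1% and 14.4%. The 3 arrays of one group all lay above the 3 of the other for 41 of the members (89.1%) and for 78.4% of all genes. Of the members, 11 were above background on no array. Of the muscle and cartilage markers, 2 of 2 measured muscle genes (7 were listed) and 5 of 6 measured cartilage genes (8 were listed) were higher on the keratinocyte-labelled arrays. The summed linear signal of the muscle genes was 145.7 to 246 there and 43.4 to 52.4 on the MEF-labelled arrays, and that of the cartilage genes was 606.4 to 673.6 and 314.6 to 324. The muscle gene Des exceeded background on 1 array only. Of the cartilage genes 4 were above background on no array. Those left ran in opposite directions, Col2a1 higher on the keratinocyte-labelled arrays (difference 3.61) and Sox9 on the MEF-labelled arrays (difference -0.85). The macrophage genes Cd68 and Lyz2 summed to 48 to 75.3 and 348.9 to 413.5, but they ran in opposite directions. Cd68 was higher on the MEF-labelled arrays and Lyz2 on the keratinocyte-labelled arrays, where Lyz2 exceeded background on 1 array. The endothelial gene Kdr was above background on no array. Their part in the results was not tested. In bulk RNA, fewer cells of a type and less RNA per cell cannot be told apart.

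**Figure D1:**
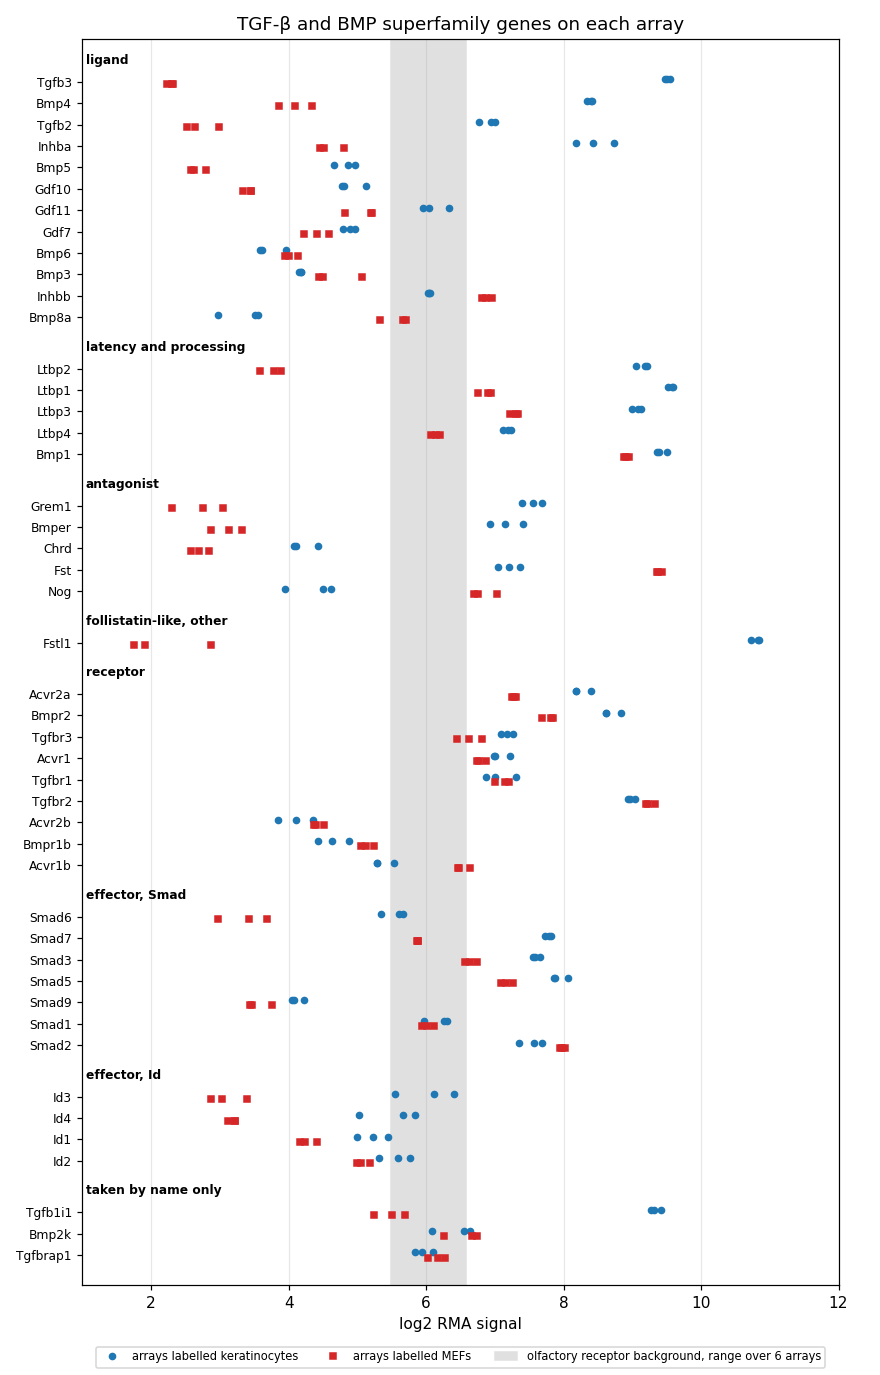
Log2 RMA signal (horizontal axis) of the 46 superfamily genes, grouped by role, with each point a keratinocyte-labelled (blue circles) or MEF-labelled (red squares) array, and a grey band from 5.49 to 6.58 for the olfactory receptor background over the 6 arrays. Tgfb3, Fstl1, Ltbp2 and Grem1 lie above the band on the keratinocyte-labelled arrays and below it on the MEF-labelled arrays, while the receptors lie close together in both groups.

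Promoter sequence is shown for 5 members, because the Id genes are classical targets of BMP signalling and because Grem1 and Tgfb2 are an antagonist and a TGF-β ligand with large differences; these were chosen after their values were seen. The 250 bases before the annotated start site were taken from RefSeq (GRCm38.p6), which had an entry for 36 of the 46 genes. Each is printed 5′ to 3′ on the strand of the gene. Capitals mark matches, on either strand, to any of 3 motifs. GGCGCC is a GC-rich element that BMP Smads bind. The motif CAGACA is an extended Smad binding element. The TATA box was searched as TATAAA. No match shared bases with another motif in the windows printed. The window of Id2 lies at chr12:25096093-25096342, minus strand; Id3 at chr4:136143572-136143821, plus strand; Id4 at chr13:48260866-48261115, plus strand; Grem1 at chr2:113758649-113758898, minus strand; and Tgfb2 at chr1:186705990-186706239, minus strand.
Id2: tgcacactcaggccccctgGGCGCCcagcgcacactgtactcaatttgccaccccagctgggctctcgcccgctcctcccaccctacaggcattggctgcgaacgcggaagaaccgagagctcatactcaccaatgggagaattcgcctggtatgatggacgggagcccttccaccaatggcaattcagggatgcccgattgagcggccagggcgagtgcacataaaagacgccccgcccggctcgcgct
Id3: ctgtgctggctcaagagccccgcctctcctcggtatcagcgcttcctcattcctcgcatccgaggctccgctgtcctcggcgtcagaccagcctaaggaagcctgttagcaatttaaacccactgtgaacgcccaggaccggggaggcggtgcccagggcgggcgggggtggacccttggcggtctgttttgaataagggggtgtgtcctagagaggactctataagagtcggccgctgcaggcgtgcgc
Id4: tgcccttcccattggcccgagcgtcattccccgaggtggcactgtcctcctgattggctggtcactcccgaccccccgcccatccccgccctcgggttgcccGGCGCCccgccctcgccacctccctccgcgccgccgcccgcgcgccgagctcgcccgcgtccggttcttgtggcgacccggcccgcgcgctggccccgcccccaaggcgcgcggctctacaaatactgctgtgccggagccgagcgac
Grem1: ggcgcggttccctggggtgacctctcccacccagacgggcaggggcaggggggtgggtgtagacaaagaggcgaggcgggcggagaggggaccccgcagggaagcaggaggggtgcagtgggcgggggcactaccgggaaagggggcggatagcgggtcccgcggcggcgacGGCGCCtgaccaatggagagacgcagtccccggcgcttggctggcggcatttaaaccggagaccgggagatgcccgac
Tgfb2: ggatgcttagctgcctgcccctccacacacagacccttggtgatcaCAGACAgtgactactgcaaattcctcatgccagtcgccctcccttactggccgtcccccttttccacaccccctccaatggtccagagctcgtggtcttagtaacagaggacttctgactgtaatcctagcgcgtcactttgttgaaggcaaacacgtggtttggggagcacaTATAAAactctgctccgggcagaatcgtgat

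In these windows GGCGCC began at position -231 from the start site of Id2, at -148 in Id4 and at -78 in Grem1, and Id3 held none of the 3 motifs. Tgfb2 held CAGACA at position -204 and the TATA box at -31. Among the members with an entry, 11 of 36 (30.6%) held GGCGCC, while 9.59% of all 32851 windows and 10.8% of all 27025 genes with an entry did. These 27025 genes were not limited to those measured on the arrays, so the members are set against a wider set here. CAGACA was found in 5 members (13.9%), against 19.3% of these genes, and the TATA box in 4 (11.1%), against 14.3%. The 11 members with GGCGCC were Bmpr2, Chrd, Grem1, Id2, Id4, Ltbp4, Smad5 and Smad9, which were higher on the keratinocyte-labelled arrays, and Tgfbr1, Bmp2k and Tgfbrap1, which did not pass the test. Among all 46 members, 67.4% were higher on the keratinocyte-labelled arrays. GGCGCC holds only G and C, and the shares were not adjusted for the GC content of the windows. A match describes the letters of the window and no binding site was measured.

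All 12 ligand genes measured passed the test, 8 (66.7%) as higher on the keratinocyte-labelled arrays and 4 (33.3%) as higher on the MEF-labelled arrays, beside 32.9% and 41.7% of all genes. Tgfb3, Bmp4, Tgfb2 and Inhba were bright on the keratinocyte-labelled arrays and not above background on the MEF-labelled arrays. Tgfb3, which encodes TGF-β3, a ligand needed for palate fusion in mice, had log2 signals of 9.47, 9.55 and 9.50 on the keratinocyte-labelled arrays and of 2.31, 2.23 and 2.31 on the MEF-labelled arrays. At least 8.70-fold more signal was found on the keratinocyte-labelled arrays, or at least 17.5-fold without the bright olfactory probe set (limma, adjusted p = 7.89e-10). The replicates lay within 0.1 of each other in either group. Tgfb2, the gene of a closely related ligand, stood at 6.94, 6.76 and 7.01 on the keratinocyte-labelled arrays, against 2.99, 2.63 and 2.52 on the MEF-labelled arrays. The bound for it was 1.43-fold, or 2.89-fold (limma, adjusted p = 4.03e-08). Both genes thus exceeded background only on the keratinocyte-labelled arrays.

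Bmp4, a ligand of mesoderm and bone formation, had signals of 8.39, 8.34 and 8.42 on the keratinocyte-labelled arrays and of 3.85, 4.33 and 4.10 on the MEF-labelled arrays. It was higher on the keratinocyte-labelled arrays by at least 3.99-fold, or at least 8.04-fold (limma, adjusted p = 2.33e-08). Inhba encodes the βA subunit of activin A and stood at 8.74, 8.18 and 8.43 against 4.51, 4.81 and 4.45, at least 4.17-fold or 8.41-fold higher on the keratinocyte-labelled arrays (limma, adjusted p = 1.46e-07). The other activin subunit gene measured went the opposite way. Inhbb, which encodes βB, had 6.03, 6.05 and 6.06 on the keratinocyte-labelled arrays and 6.81, 6.96 and 6.86 on the MEF-labelled arrays, 1.78-fold higher on the MEF-labelled arrays and above background on all 6 (limma, adjusted p = 4.39e-05).

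The remaining ligands were dim. Gdf11, which patterns the body axis, was above background only on the keratinocyte-labelled arrays, with 5.95, 6.33 and 6.04 against 4.82, 5.21 and 5.20 (difference 1.03; limma, adjusted p = 2.80e-04). Bmp5, Gdf10, Gdf7, Bmp6, Bmp3 and Bmp8a were above background on no array. Among them, Bmp5 differed by 2.16, with 4.96, 4.86 and 4.67 on the keratinocyte-labelled arrays and 2.63, 2.79 and 2.57 on the MEF-labelled arrays (limma, adjusted p = 5.26e-07). Gdf10, also called BMP3b, and Gdf7, a ligand of the dorsal spinal cord, had fitted differences of 1.48 and 0.47, again without overlap of the groups.
Bmp8a ran the other way, with 2.97, 3.51 and 3.55 on the keratinocyte-labelled arrays and 5.32, 5.71 and 5.66 on the MEF-labelled arrays (difference -2.22; limma, adjusted p = 8.30e-06). Bmp8b is a close copy of it, and whether its transcript adds to this signal was not tested. For Bmp3, a ligand that can oppose other BMPs, the signals were 4.17, 4.18 and 4.15 against 4.44, 5.06 and 4.51 (limma, adjusted p = 0.0208). In Bmp6 the groups overlapped, with 3.58, 3.96 and 3.61 on the keratinocyte-labelled arrays and 4.13, 4.01 and 3.95 on the MEF-labelled arrays (limma, adjusted p = 0.0481). The call of Bmp3 was lost without keratinocyte-labelled replicate 3 (limma, adjusted p = 0.0532), and over its alternatives this p was 0.00332 to 0.0858. That of Bmp6 was lost with any 1 array left out except keratinocyte-labelled replicate 2 (adjusted p = 0.0684 to 0.134), and over its alternatives the p was 0.00202 to 0.262.

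**Figure D2:**
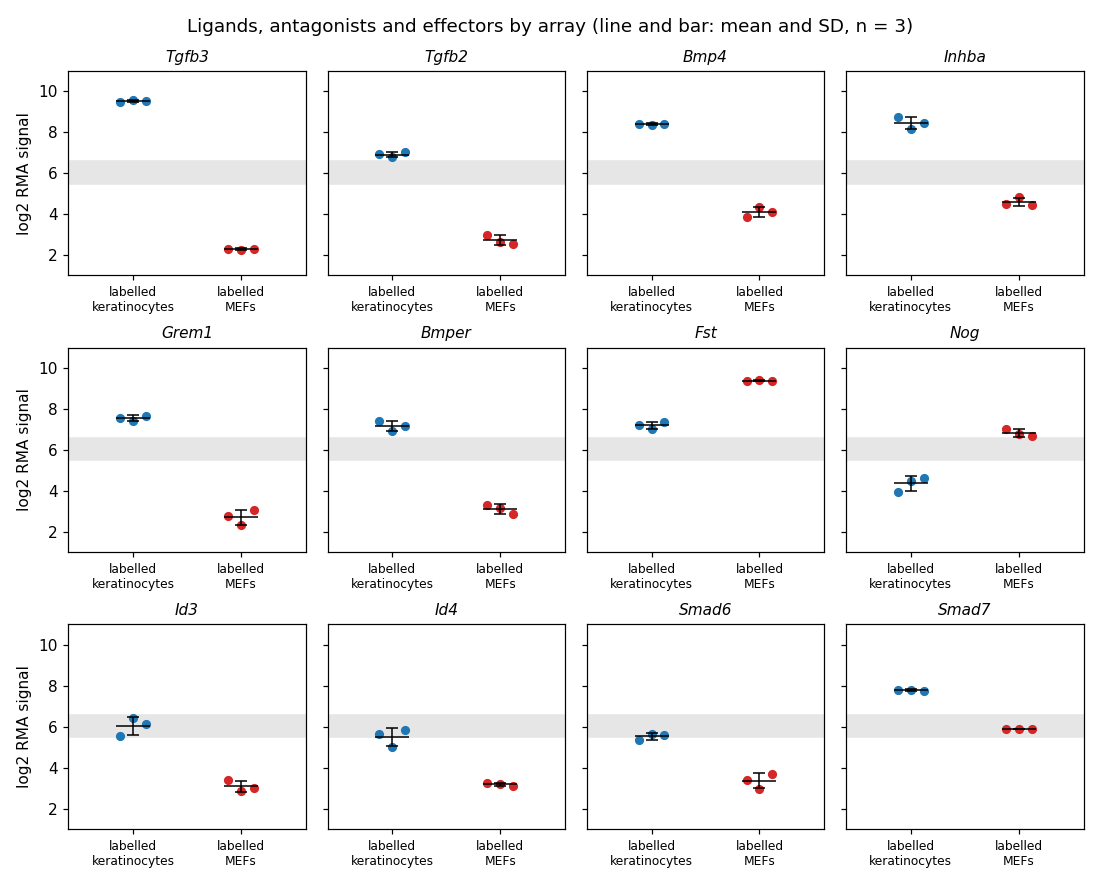
Log2 RMA signal (vertical axis) of 12 ligand, antagonist and effector genes on the 3 keratinocyte-labelled arrays (blue, left) and the 3 MEF-labelled arrays (red, right), where black lines give the mean, bars the SD (n = 3) and the grey band the olfactory receptor background. Fst and Nog are higher on the MEF-labelled arrays, the other 10 genes on the keratinocyte-labelled arrays.

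Latency and processing genes were all higher on the keratinocyte-labelled arrays (5 of 5, beside 32.9% of all genes). The Ltbp proteins are large matrix glycoproteins related to fibrillins, and Ltbp1, Ltbp3 and Ltbp4 are known to bind latent TGF-β, which Ltbp2 is not. Ltbp2 had the largest difference, with 9.22, 9.18 and 9.06 on the keratinocyte-labelled arrays and 3.78, 3.58 and 3.88 on the MEF-labelled arrays, at least 6.80-fold or 13.7-fold (limma, adjusted p = 3.52e-09). Ltbp1 was above background on all arrays and 6.48-fold higher on the keratinocyte-labelled arrays, with 9.58, 9.59 and 9.52 against 6.76, 6.94 and 6.89 (limma, adjusted p = 4.30e-08). The other family members followed with smaller differences. Ltbp3 stood at 9.08, 9.12 and 8.99 against 7.34, 7.23 and 7.31, a 3.42-fold difference (limma, adjusted p = 4.38e-07). Ltbp4 had 7.18, 7.12 and 7.23 on the keratinocyte-labelled arrays and 6.14, 6.07 and 6.20 on the MEF-labelled arrays, 2.06-fold higher on the keratinocyte-labelled arrays (limma, adjusted p = 1.12e-05). It exceeded background on 4 arrays only, so this fold rests partly on signals under background. Bmp1 is named with the BMPs but encodes a metalloproteinase that cleaves procollagen and chordin, and it was 1.42-fold higher, with 9.35, 9.50 and 9.39 against 8.88, 8.90 and 8.95 (limma, adjusted p = 9.35e-04).

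Of the 5 antagonists of the ligands, 3 were higher on the keratinocyte-labelled arrays and 2 on the MEF-labelled arrays (60% and 40%, beside 32.9% and 41.7% of all genes). Grem1 and Bmper were high on the keratinocyte-labelled arrays, and Nog and Fst on the MEF-labelled arrays. Grem1, which encodes gremlin, an antagonist of BMP2, BMP4 and BMP7, had signals of 7.55, 7.40 and 7.68 on the keratinocyte-labelled arrays and of 2.75, 2.31 and 3.05 on the MEF-labelled arrays, at least 2.23-fold or 4.49-fold higher on the keratinocyte-labelled arrays (limma, adjusted p = 7.90e-08). Bmper, a secreted BMP-binding protein that can block or aid BMP signals, stood at 7.40, 6.94 and 7.14 against 3.32, 3.14 and 2.86, at least 1.71-fold or 3.45-fold (limma, adjusted p = 9.45e-08). Chrd, the gene of chordin, went the same way with 4.11, 4.42 and 4.08 against 2.57, 2.84 and 2.69, but it was above background on no array (limma, adjusted p = 1.07e-05).
Nog encodes noggin, which binds BMPs and keeps them from their receptors, and was above background only on the MEF-labelled arrays. Its signals were 3.95, 4.50 and 4.62 on the keratinocyte-labelled arrays and 7.04, 6.76 and 6.70 on the MEF-labelled arrays, at least 2.19-fold or 2.57-fold higher on the MEF-labelled arrays (limma, adjusted p = 4.85e-06). Fst, which encodes the activin-binding protein follistatin, was above background on all 6 arrays. It had 7.21, 7.04 and 7.36 on the keratinocyte-labelled arrays and 9.37, 9.43 and 9.36 on the MEF-labelled arrays, 4.54-fold higher on the MEF-labelled arrays (limma, adjusted p = 3.53e-07). The groups did not overlap in any of the 5 antagonists, as in 78.4% of all genes. Fstl1 is a secreted glycoprotein of the follistatin and SPARC family that was reported to bind BMP4 in mouse lung. On the keratinocyte-labelled arrays it had 10.73, 10.83 and 10.84, against 2.86, 1.75 and 1.91 on the MEF-labelled arrays, a fitted difference of 8.62 (at least 21.3-fold or 42.9-fold; limma, adjusted p = 2.41e-08).

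Of 9 receptor genes measured, 4 (44.4%) were higher on the keratinocyte-labelled arrays, 3 (33.3%) on the MEF-labelled arrays and 2 did not pass, shares near the 32.9% and 41.7% of all genes, with a median log2 difference of -0.06, and 1 reached a difference of 1 in size. That gene was Acvr1b, which encodes ALK4, the type I receptor for activin, with 5.53, 5.29 and 5.29 on the keratinocyte-labelled arrays and 6.48, 6.46 and 6.65 on the MEF-labelled arrays. The gene was higher by at least 1.77-fold on the MEF-labelled arrays, and 2.23-fold as measured without the bright olfactory probe set (limma, adjusted p = 2.12e-05). The latter fold rests partly on signals under background, since of the keratinocyte-labelled arrays only replicate 1 then exceeded it (5.53 against 5.51). The activin type II receptor gene Acvr2a ran opposite to it, with 8.40, 8.19 and 8.18 against 7.27, 7.31 and 7.25, 1.97-fold higher on the keratinocyte-labelled arrays (limma, adjusted p = 2.96e-05). Bmpr2, the BMP type II receptor gene, was 1.88-fold higher there, with 8.84, 8.62 and 8.61 against 7.69, 7.82 and 7.85 (limma, adjusted p = 7.03e-05). These genes were above background on all 6 arrays apart from Acvr1b.
Tgfbr3 encodes betaglycan, a co-receptor that presents TGF-β2, and was 1.46-fold higher on the keratinocyte-labelled arrays, with 7.09, 7.18 and 7.26 against 6.45, 6.63 and 6.82 (limma, adjusted p = 0.00275). It exceeded background on 5 of the 6 arrays, all but MEF-labelled replicate 1. Bmpr1b, the gene of the BMP type I receptor ALK6, was above background on no array and had 4.88, 4.62 and 4.43 against 5.24, 5.12 and 5.06 (limma, adjusted p = 0.00772). For the TGF-β type II receptor gene Tgfbr2, the signals were 8.97, 9.04 and 8.94 on the keratinocyte-labelled arrays and 9.33, 9.19 and 9.23 on the MEF-labelled arrays, 1.21-fold higher on the MEF-labelled arrays (limma, adjusted p = 0.0225). In Acvr1, the gene of the type I receptor ALK2, they were 7.22, 7.00 and 6.99 against 6.75, 6.77 and 6.87, 1.21-fold higher on the keratinocyte-labelled arrays (limma, adjusted p = 0.0369). Both of these calls turned on single arrays. That of Tgfbr2 was lost without keratinocyte-labelled replicate 3 or MEF-labelled replicate 1 or 3 (limma, adjusted p = 0.0574 to 0.0753; 0.00446 to 0.219 over its alternatives). That of Acvr1 was lost without keratinocyte-labelled replicate 1 or any 1 MEF-labelled array (limma, adjusted p = 0.0547 to 0.0992; 0.00579 to 0.0992 over its alternatives). Tgfbr1, the gene of the TGF-β type I receptor ALK5, averaged 7.06 ± 0.23 on the keratinocyte-labelled arrays and 7.12 ± 0.11 on the MEF-labelled arrays (SD, n = 3 each), and its difference of -0.06 had a 95% interval of -0.36 to 0.23 (limma, adjusted p = 0.663). Acvr2b, above background on no array, averaged 4.11 ± 0.25 and 4.43 ± 0.08 in the same order of groups (difference -0.32, 95% interval -0.63 to -0.01; limma, adjusted p = 0.0561), and it passed without keratinocyte-labelled replicate 1 (adjusted p = 0.0107; 0.0107 to 0.214 over its alternatives).

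**Figure D3:**
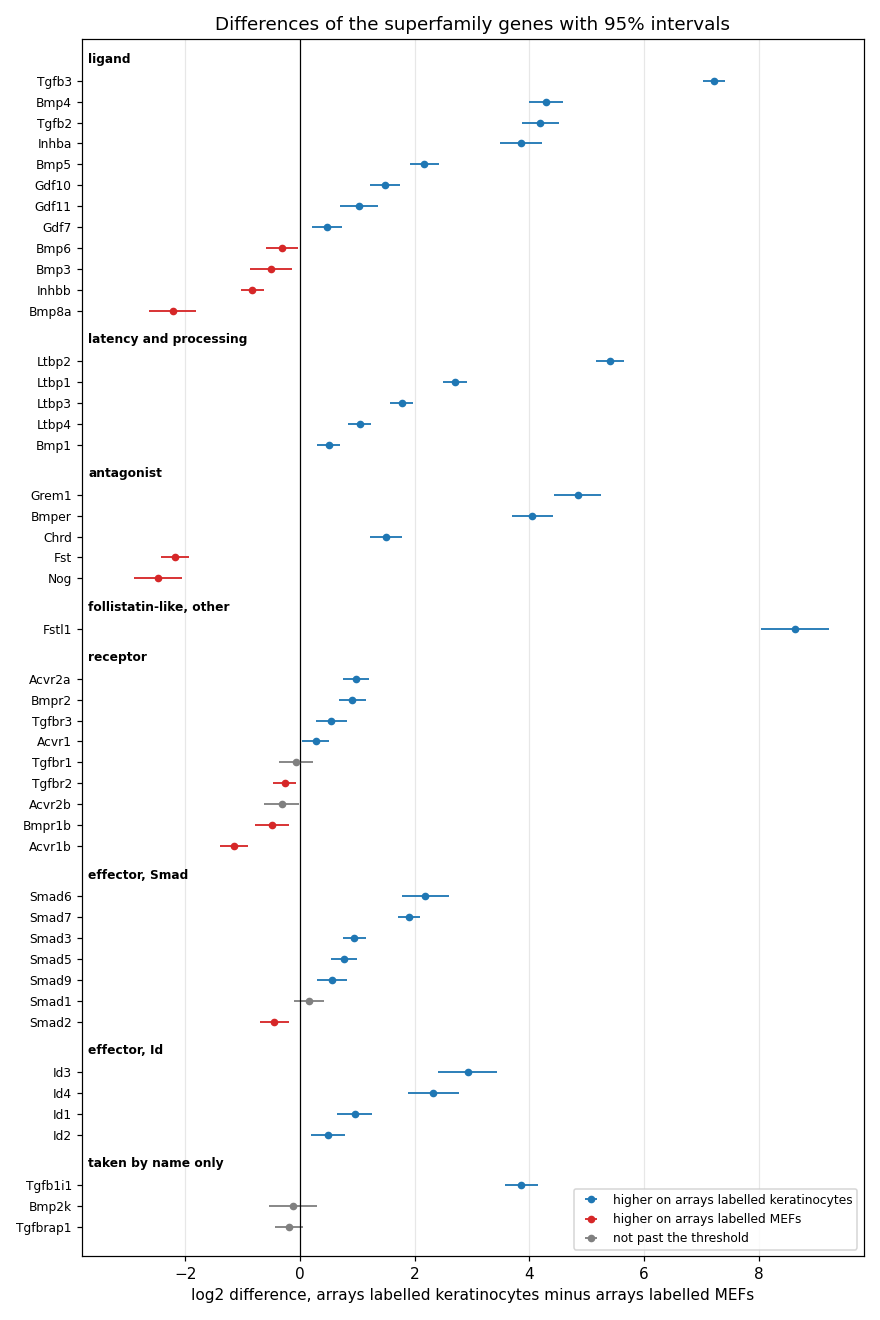
Log2 difference (horizontal axis, keratinocyte-labelled minus MEF-labelled arrays) of the 46 genes by role, with points for the estimates and bars for limma's 95% intervals over 3 arrays a group. Points in blue are higher on the keratinocyte-labelled arrays (31 genes), points in red higher on the MEF-labelled arrays (10), and 5 grey points did not pass. The receptors lie between -1.15 and 0.98, and the ligands between -2.22 and 7.22.

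Of the 7 Smad genes, 5 (71.4%) were higher on the keratinocyte-labelled arrays and 1 (14.3%) on the MEF-labelled arrays, beside 32.9% and 41.7% of all genes. Smad7, whose protein blocks both branches of the pathway and is itself induced by TGF-β, had 7.82, 7.79 and 7.73 on the keratinocyte-labelled arrays and 5.87, 5.88 and 5.88 on the MEF-labelled arrays. Its signal was higher by at least 2.63-fold on the keratinocyte-labelled arrays, and 3.74-fold as measured once the bright olfactory probe set was left out (limma, adjusted p = 1.90e-07). Smad6, which acts mainly on BMP signals, stood at 5.35, 5.67 and 5.61 against 3.42, 2.97 and 3.68, and exceeded background on 1 array only (limma, adjusted p = 1.07e-05). Its bound came to under 1 with all 10 olfactory probe sets and to 1.12-fold without the bright one.
The receptor-activated Smads of the TGF-β branch ran in opposite directions. Smad3 had 7.58, 7.56 and 7.65 on the keratinocyte-labelled arrays and 6.75, 6.57 and 6.63 on the MEF-labelled arrays, 1.93-fold higher on the keratinocyte-labelled arrays (limma, adjusted p = 2.57e-05). Smad2 had 7.69, 7.35 and 7.57 against 7.95, 8.02 and 7.98, 1.36-fold higher on the MEF-labelled arrays (limma, adjusted p = 0.00538). In the BMP branch, Smad5 was 1.70-fold higher on the keratinocyte-labelled arrays, with 8.06, 7.86 and 7.88 against 7.08, 7.16 and 7.27 (limma, adjusted p = 1.75e-04). Smad9 went the same way below background, with 4.07, 4.05 and 4.22 against 3.43, 3.47 and 3.76 (limma, adjusted p = 0.00223), and lost its call with quantile normalization (adjusted p = 0.175; 0.000385 to 0.175 over its alternatives). Smad1 averaged 6.18 ± 0.19 on the keratinocyte-labelled arrays and 6.02 ± 0.09 on the MEF-labelled arrays (SD, n = 3 each) and did not pass (difference 0.16, 95% interval -0.11 to 0.42; limma, adjusted p = 0.247), but it did with median centring and with quantile normalization (adjusted p = 0.0352 and 0.0444; 0.0352 to 0.511 over its alternatives). In the GRCm38.p6 annotation Smad3 and Smad6 are neighbours, with 0 protein-coding genes between them, and were higher on the same arrays. Smad7 and Smad2, with 2 protein-coding genes between them, were higher on opposite ones.

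The Id genes encode helix-loop-helix proteins without a DNA-binding domain, which hold basic helix-loop-helix factors inactive and are classical targets of BMP signalling. All 4 were higher on the keratinocyte-labelled arrays, beside 32.9% of all genes, at low signal. Id3 had 5.54, 6.41 and 6.12 on the keratinocyte-labelled arrays and 3.39, 2.88 and 3.03 on the MEF-labelled arrays, with a difference of 2.92 (95% interval 2.41 to 3.44; limma, adjusted p = 6.55e-06). Id4 stood at 5.66, 5.02 and 5.83 against 3.23, 3.21 and 3.11, a difference of 2.32 (limma, adjusted p = 1.08e-05). The other two were called in the same direction. Id1 had 5.00, 5.23 and 5.45 on the keratinocyte-labelled arrays and 4.41, 4.16 and 4.24 on the MEF-labelled arrays (difference 0.95; limma, adjusted p = 2.49e-04). Id2 had 5.59, 5.32 and 5.77 against 4.99, 5.05 and 5.18 (difference 0.48; limma, adjusted p = 0.00887). No Id gene exceeded background on the MEF-labelled arrays. On the keratinocyte-labelled arrays Id3 did so on 2 arrays, Id2 and Id4 on 1 each and Id1 on none. The bounds came to under 1 with all 10 olfactory probe sets, and without the bright one that for Id3 was 1.57-fold. The promoters printed above for Id2 and Id4 hold a GGCGCC match and that for Id3 does not.

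Finally, 3 genes were taken by their name but are no ligand, receptor, antagonist or Smad. Tgfb1i1 encodes Hic-5, a LIM domain protein of focal adhesions that TGF-β induces. It had 9.27, 9.42 and 9.32 on the keratinocyte-labelled arrays and 5.51, 5.25 and 5.69 on the MEF-labelled arrays, at least 7.73-fold higher on the keratinocyte-labelled arrays, and 14.5-fold as measured without the bright olfactory probe set (limma, adjusted p = 3.67e-08). The latter fold rests partly on signals under background, since only MEF-labelled replicate 3 then exceeded it (5.69 against 5.30). Bmp2k, a kinase gene, averaged 6.43 ± 0.30 and 6.55 ± 0.26 in the same order of groups (SD, n = 3 each; difference -0.13, 95% interval -0.54 to 0.29; limma, adjusted p = 0.541). Tgfbrap1, the gene of a receptor-associated trafficking protein, averaged 5.96 ± 0.13 and 6.16 ± 0.12 (SD, n = 3 each; difference -0.20, 95% interval -0.44 to 0.05; limma, adjusted p = 0.126). The last 2 overlapped between the groups.

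Other genes of the pathway that the naming rule does not take were drawn from lists of 74 genes, of which 53 were measured. Of these, 38 (71.7%) were higher on the keratinocyte-labelled arrays, 9 (17%) were higher on the MEF-labelled arrays and 6 did not pass, beside 32.9% and 41.7% of all genes called, with a median log2 difference of 0.95. The lists were chosen with earlier results of these data known, so their shares are no independent check on the members. Inha was the only other ligand gene measured, at 4.23 ± 0.14 on the keratinocyte-labelled arrays and 4.54 ± 0.14 on the MEF-labelled arrays, above background on no array (SD, n = 3 each; limma, adjusted p = 0.0338). It was called as higher on the MEF-labelled arrays, and this call was lost without keratinocyte-labelled replicate 3 or MEF-labelled replicate 1 or 3 (limma, adjusted p = 0.0901 to 0.116; 0.00476 to 0.204 over its alternatives). With the replicate number as a block it was lost too (limma, adjusted p = 0.0744), as with median centring (0.204), an intensity trend (0.0842) and all deposited probe sets (0.0514). Genes listed for latent TGF-β, as holding, activating or restraining it, were higher on the keratinocyte-labelled arrays in 10 of 11 cases (90.9%, beside 32.9% of all genes). Fbn2, the gene of the microfibril protein fibrillin-2, led with 10.24, 10.19 and 10.09 on the keratinocyte-labelled arrays and 3.27, 3.34 and 2.73 on the MEF-labelled arrays, at least 13.8-fold (limma, adjusted p = 6.31e-09). Emilin1, which restrains TGF-β maturation, was at least 2.40-fold higher (limma, adjusted p = 2.58e-08) and the matrix metalloproteinase gene Mmp2 10.6-fold higher (limma, adjusted p = 9.73e-09). The exception was Itgb6, whose β6 integrin chain activates latent TGF-β on epithelial cells. It had 1.82, 1.49 and 1.22 on the keratinocyte-labelled arrays and 8.48, 8.76 and 8.61 on the MEF-labelled arrays, at least 7.56-fold higher on the MEF-labelled arrays (limma, adjusted p = 5.61e-09). Itgb8, the gene of another activating integrin chain, ran opposite to Itgb6 but was above background on no array, at 4.47, 4.78 and 4.29 on the keratinocyte-labelled arrays and 2.07, 1.76 and 1.45 on the MEF-labelled arrays (limma, adjusted p = 2.41e-06).

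Co-receptors and other receptors were higher on the keratinocyte-labelled arrays in 6 of 6 cases, beside 32.9% of all genes. Nrp1, a co-receptor gene, was 3.77-fold higher, with 8.65, 8.44 and 8.46 on the keratinocyte-labelled arrays and 6.46, 6.78 and 6.58 on the MEF-labelled arrays (limma, adjusted p = 1.34e-06). It exceeded background on 4 arrays only, so this fold rests partly on signals under background. Eng, which encodes the co-receptor endoglin, stood at 5.95, 6.21 and 6.11 against 3.43, 3.17 and 3.01 (limma, adjusted p = 2.36e-07). Rgma, a BMP co-receptor gene, was at least 1.35-fold higher (limma, adjusted p = 5.62e-06). Bambi, a pseudoreceptor gene, was above background on no array, with a difference of 1.12 (limma, adjusted p = 5.79e-05). Of the other antagonists 5 of 6 (83.3%, beside 32.9% of all genes) were higher on the keratinocyte-labelled arrays and Sost did not pass. Nbl1, also called DAN, was at least 1.46-fold higher on the keratinocyte-labelled arrays, with a wide spread of 6.40, 6.99 and 7.42 there and 3.34, 4.17 and 2.69 on the MEF-labelled arrays (limma, adjusted p = 4.91e-05). Tmeff2, Kcp and Tmeff1 followed with differences of 2.29, 0.92 and 0.52, but Tmeff2 and Kcp, like Sost, were above background on no array. Of 16 intracellular regulators, 7 (43.8%) were higher on the keratinocyte-labelled arrays, 6 (37.5%) were higher on the MEF-labelled arrays and 3 did not pass, shares near the 32.9% and 41.7% of all genes, with a median difference of 0.00. Those with the largest differences were Ldlrad4, which inhibits Smad activation, and the kinase adaptor gene Tab2. Ldlrad4, above background on 5 of the 6 arrays, was 2.26-fold higher on the keratinocyte-labelled arrays (limma, adjusted p = 3.36e-05). Tab2 was 1.98-fold higher there (limma, adjusted p = 2.92e-05). Ski, a Smad corepressor gene, was 1.56-fold higher there (limma, adjusted p = 2.64e-04). The ubiquitin ligase genes Smurf2 and Smurf1 ran in opposite directions, 1.32-fold higher on the keratinocyte-labelled arrays and 1.57-fold higher on the MEF-labelled arrays (limma, adjusted p = 0.00874 and 1.36e-04).

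Known target genes of the pathway were higher on the keratinocyte-labelled arrays in 10 of 13 cases (76.9%, beside 32.9% of all genes), with 1 higher on the MEF-labelled arrays and 2, Hey1 and Junb, that did not pass (adjusted p = 0.0662 and 0.138). Of these 13, 5 were above background on no array. Hey1 passed with the replicate number as a block (limma, adjusted p = 0.00681), with median centring (0.0372), with array weights (0.0389) and without MEF-labelled replicate 1 (0.013), and Junb without MEF-labelled replicate 3 (limma, adjusted p = 0.0375). Tagln and Acta2, which encode smooth muscle proteins of the actin cytoskeleton, had the largest differences. Acta2 stood at 12.16, 12.19 and 12.20 on the keratinocyte-labelled arrays and 7.69, 7.42 and 7.53 on the MEF-labelled arrays, 24.9-fold higher on the keratinocyte-labelled arrays (limma, adjusted p = 4.24e-09). Tagln was at least 17.8-fold higher there (limma, adjusted p = 1.11e-09). Ccn2, the gene of connective tissue growth factor, was 5.09-fold higher, with 10.79, 10.82 and 10.91 against 8.49, 8.43 and 8.55 (limma, adjusted p = 8.09e-08), and Tgfbi, which encodes a matrix protein, 4.71-fold higher (limma, adjusted p = 1.84e-07). Tgfbi exceeded background on 4 arrays only, so its fold rests partly on signals under background. Several of these genes are also known as markers of mesenchymal cells, and the fibroblast markers moved with them. Klf10, an early TGF-β response gene, was the one that ran the other way, with 5.03, 4.81 and 5.20 on the keratinocyte-labelled arrays and 6.57, 6.71 and 6.78 on the MEF-labelled arrays, at least 1.98-fold higher on the MEF-labelled arrays (limma, adjusted p = 4.42e-06). The BMP targets Msx1, Msx2, Dlx5 and Atoh8 differed by 1.09, 1.25, 1.17 and 1.97, each called as higher on the keratinocyte-labelled arrays and each above background on no array.

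**Figure D4:**
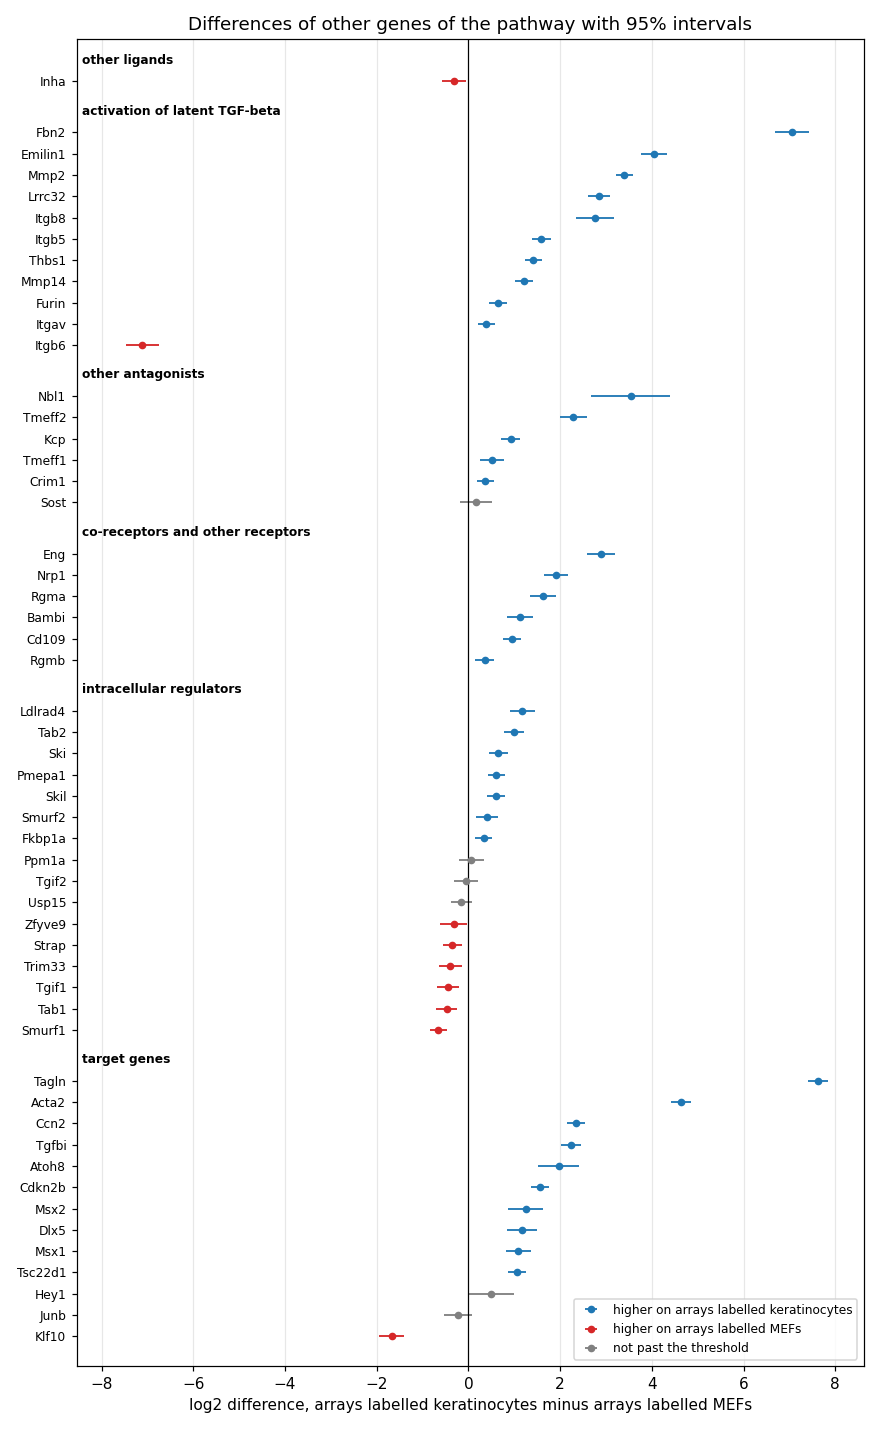
Log2 difference (horizontal axis, keratinocyte-labelled minus MEF-labelled arrays) of 53 other genes of the pathway, grouped by list, with points for the estimates and bars for limma's 95% intervals over 3 arrays a group. Blue marks 38 genes higher on the keratinocyte-labelled arrays, red 9 genes higher on the MEF-labelled arrays and grey 6 genes that did not pass, with Itgb6 at -7.11 and Fbn2 at 7.06 as opposite ends of the latent TGF-β list.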

How the data were processed

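The authors deposited 1 table of log2 values, with a column for each of 6 arrays and 15648 probe sets. Per the methods these are RMA signals made with oligo (1.46.0 in the submitters' processing notes). That the scale is log2 was read from the range of the values, and the sources used here state neither the set of arrays that entered RMA nor how the probe sets were selected. RMA compresses dim signals, so low genes may differ more than shown.

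Columns were mapped through the sample accession and groups through the sample titles. The platform table gave 11288 probe sets with 1 symbol, 645 with several and none for 3715. Symbols were updated through 11274 gene identifiers found in RefSeq (GRCm38.p6), and for a gene with several the brightest one was used. The groups were compared in R 4.3.3 with limma 3.58.1 (lmFit, eBayes) on all 11288, without a block, with Benjamini-Hochberg adjustment. The comparison was tested on simulated data, where 200 of 11288 probe sets were changed: it recovered 86% of them at a log2 change of 1 and 96% at 2, with 4.21% false calls. In the data themselves 3371 and 4278 of 10261 genes were called in either direction. The simulated share of changed probe sets was far smaller, so its recovery and false calls do not carry over to the data. P-values measure the spread between arrays labelled as biological replicates.

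The members, lists, roles and rules were chosen with earlier results of these data known. The rule for values on each array took up to 6 called members a role with the largest differences and those that ran against most of their role. Gdf11 lies outside it and was added after its values were seen. Of each other list up to 4 called genes with the largest differences are named. Further genes of these lists (Smurf2, Klf10, Msx1, Msx2, Dlx5, Atoh8, Itgb8 and those that did not pass) were named after their values were seen. The values gave no sign that the replicate numbers pair the arrays. Alternatives were a replicate block, each array left out, median centring, quantile normalization, array weights, 2 filters on low signals, robust eBayes with an intensity trend, a test of each probe set without moderation by limma, averaging the probe sets of a gene, a fit on all deposited probe sets and a minimum difference. The background correction could not be varied because only processed values were used. Figures were drawn with matplotlib 3.10.9.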

Additional observations from a re-analysis of the deposited data

How the results depend on the processing

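Of the 46 members, 25 kept their direction and their side of the threshold under each of 18 alternatives in which they were tested, and 2 changed sign in some, neither of which had passed. Tgfbr1 stood at 0.0633 with median centring, at 0.0658 with quantile normalization and at -0.189 to 0.0305 with single arrays left out, the highest without keratinocyte-labelled replicate 3. Bmp2k stood at 0.0025 with median centring and at -0.275 to 0.0427, the highest without keratinocyte-labelled replicate 2. Of the 53 other pathway genes, 28 were as steady and 3 that had not passed changed sign. Sost stood at -0.0971 with quantile normalization. Tgif2 stood at 0.0736 with median centring, at 0.0704 with quantile normalization and at -0.1245 to 0.0419 with single arrays left out, above 0 without MEF-labelled replicate 3. Ppm1a stood at -0.0167 with array weights and at -0.0417 to 0.116 with single arrays left out, below 0 without replicate 1 of either group. Median centring shifted the median difference of all genes by 0.13 and turned their counts from an excess on the MEF-labelled arrays (3371 and 4278) into one on the keratinocyte-labelled arrays (3902 and 3575). Members higher on the keratinocyte-labelled arrays numbered 31, and 16 without probe sets below the median (22 members tested) or 20 with a minimum log2 difference of 1. Those higher on the MEF-labelled arrays numbered 10, and 4 under either of these settings or 5 where only probe sets above background on 3 or more arrays were kept (30 members tested). Both filters test fewer genes. The median filter also removes members bright in 1 group, such as Grem1 and Bmper, which the background filter keeps because of the group where they are high. With single arrays left out, the first count was 30 to 31 and the second 7 to 10. For the other pathway genes, 25 and 2 remained past the threshold at a minimum difference of 1, and 5 were higher on the MEF-labelled arrays without probe sets below the median. Over all genes, the minimum difference left 1442 and 1476, and the median filter 1680 and 2489. A test without limma's moderation gave 31 and 8 members, both unadjusted and after Benjamini-Hochberg adjustment. With the bright olfactory probe set left out, 10 members in place of 11 were above background on no array. Vomeronasal, taste and trace amine receptors could not widen the background because 0 such probe sets were named.

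Arrays of the same replicate number deviated from their group means with correlations of -0.231, -0.209 and -0.0322 over probe sets, and no array correlated best with its own number. These values gave no sign that the numbers pair the arrays, though with 3 arrays a group the check is weak. With the replicate block, 30 and 8 members were called, and the calls of Acvr1, Bmp6 and Tgfbr2 were lost (adjusted p = 0.0858, 0.0735 and 0.0693). Of the other pathway genes, Zfyve9 and Inha lost their calls (0.0714 and 0.0744) and Hey1 gained one (0.00681). The number of arrays, 3 a group, limits the precision, and signals under background may understate differences.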
